A study of Drosophila melanogaster with 56 samples.

Results

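The genes described here encode the proteasome of *Drosophila melanogaster*, and comprise 47 of the 17490 genes counted. They were chosen by symbol alone, as every gene whose symbol begins with Prosalpha or Prosbeta, or with Rpt or Rpn followed by a digit. Of these, 32 bear the plain name of a subunit and are called ubiquitous subunits, and 15 bear that name with an added R or T and are called copies, the plain-named gene being the parent of the copy. The ubiquitous subunits are 7 Prosalpha, 7 Prosbeta, 6 Rpt and 12 Rpn genes, and the copies are 4 Prosalpha, 6 Prosbeta, 3 Rpt and 2 Rpn genes that derive from 11 of the 32 parents. The names come from the symbols, and whole flies cannot show in which organ a transcript was made.

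The proteasome is the protease that degrades proteins tagged with ubiquitin. Its barrel-shaped core is built of outer rings of alpha subunits, which gate the entrance, and inner rings of beta subunits, which hold the catalytic sites. A regulatory cap on the end of the core carries a ring of Rpt ATPases, which unfold substrates, and Rpn subunits, which bind ubiquitin, remove it and hold the cap together. In *Drosophila*, several subunits have duplicate genes whose products replace the ordinary subunit during the development of spermatids, and sperm carry proteasomes with these variants. Ovaries load large amounts of RNA for ubiquitous proteins into eggs.

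RNA was sequenced from pools of 30 whole adult mated flies, with males and females pooled apart, in 56 libraries of 8 genotypes that differ in the *Obp50a-d* cluster of odorant binding protein genes. All genotypes were made in the Canton S (B) background by deleting the cluster and putting an engineered version back at its own site, so that the controls carry the same residual attachment and loxP sequences as the rest. In Obp50Neg all 4 paralogs are inactivated by premature stop codons, and Obp50Pos has them all intact. In Obp50a, Obp50b, Obp50c and Obp50d, only the named paralog is functional. Obp50NegBCD has Obp50b altered by amino acid substitutions (the CD allele) and the other paralogs inactivated, and Obp50cBCD joins that allele to a functional Obp50c. The paper holds that the CD allele may keep some function or have a changed one. Males and females of a genotype each gave 4 libraries, drawn from 2 lines, but Obp50Pos and Obp50d each rest on 1 line with 2 libraries in either sex. The labels give no age, and the methods describe young adults. The 2 female libraries that the study's authors set aside, 1 of Obp50Pos and 1 of Obp50cBCD, were also set aside here, which leaves 28 male and 26 female libraries and a single female library of Obp50Pos.

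Total counts ran from 14638498 to 53517693 per library, with a median of 29493742 in males and 25048651.5 in females. Summed testis and spermatid markers lay between 1499 and 2418 CPM in male libraries and between 39.7 and 473 CPM in female libraries. Much of the female sum was djl, with a median of 71.4 CPM beside 97.8 CPM for the sum. Ovary and egg markers lay between 4364 and 24028 CPM in females. They lay between 19.7 and 1426 CPM in males, of which 8 libraries also held more than 100 CPM of yolk protein transcripts. The paths in the file headers assign 39 libraries to a first sequencing directory, here called a set, 14 to another and 3 to one marked as redone, and female Obp50a libraries all belong to the second set. Library set and genotype cannot be told apart where they coincide. Replicate libraries of a line are separate pools of flies. The tests of sex below measure mainly the spread between pools, and those of genotype a mixed spread of pools and lines. The tests of the ratio of copy to parent go over the means of lines.

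All 15 copies were higher in males than in females and all 32 ubiquitous subunits were lower. The log2 fold change, male minus female and averaged over the 8 genotypes, ran from 2.73 to 7.74 among the copies with a median of 5.70. It ran from -2.01 to -0.19 among the ubiquitous subunits, with a median of -0.91, and the median of all 15675 genes tested was 0.11. Sex differences were common in whole flies: edgeR's quasi-likelihood test at an adjusted p of 0.05 called 84.7% of the genes tested, 44.6% higher and 40.1% lower in males. Counts alone therefore say little about the group, and the sizes and the separation of the libraries are given instead. In these bulk samples, fewer cells of a type and less RNA per cell cannot be told apart.

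**Figure D1:**
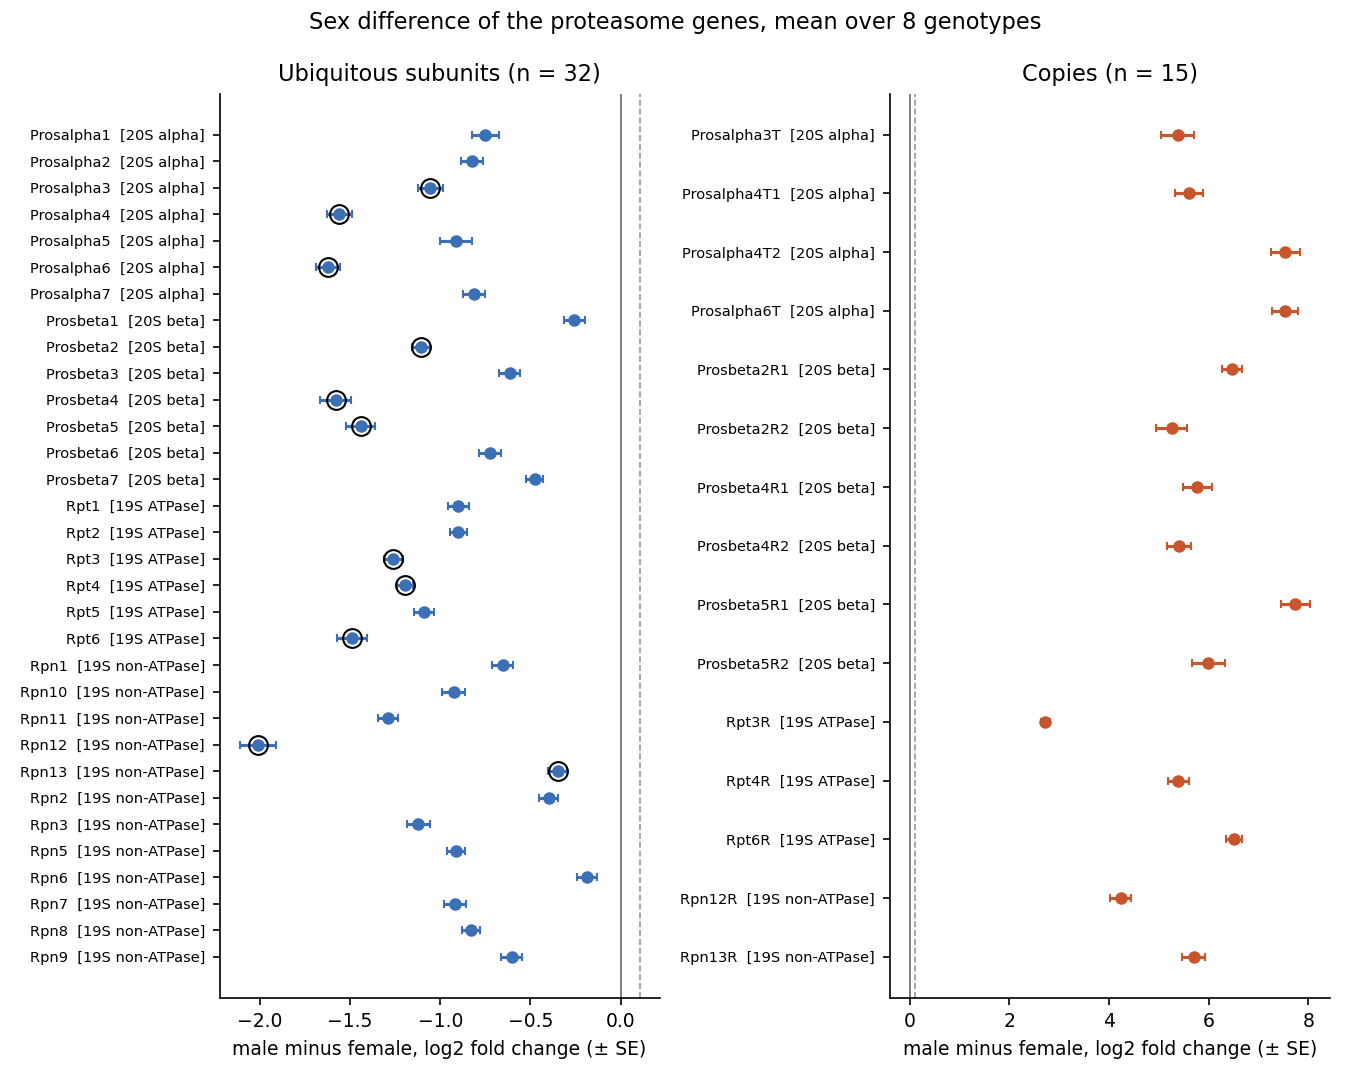
Sex difference of the 32 ubiquitous subunits (left) and 15 copies (right) on the log2 scale, male minus female, as the mean over 8 genotypes with its standard error. Circled points are ubiquitous subunits with a copy, the solid line is 0 and the dashed line is the median of all genes tested (0.11), and every ubiquitous subunit lies left of 0 and every copy right of 2.

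The 15 copies did not overlap between the sexes: each was higher in the lowest male library than in the highest female library, a pattern shown by 18.5% of all genes tested. All 47 members passed the filter on low counts, which a gene passes when no fewer than 25% of libraries have a read of it and its median count is 2 or more. A gene read in the 28 male libraries alone meets it. The adjusted p of the copies ran from 8.66e-30 for Rpt6R to 1.07e-17 for Prosalpha3T in the edgeR test. Levels below are CPM scaled by TMM, and levels per length are RPKM, the same CPM divided by the exon length in kilobases.

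Among the copies of the ATPase ring, Rpt6R (3R:30582198-30583697) was read between 37.2 and 80.4 CPM in males with a median of 53.6. In females it was read between 0.105 and 2.46 CPM with a median of 0.791. It had the highest level per length of the copies in males, a median of 37.1 RPKM, and the female libraries lay far below the lowest male one. Its log2 fold change was 6.50 ± 0.16 (SE). Rpt3R (3R:9754735-9756510) ran from 20.7 to 43.6 CPM in males with a median of 29.1, and from 1.84 to 9.95 CPM in females with a median of 4.32. Rpt4R ran from 6.26 to 16.5 CPM in males with a median of 13.6, and from 0 to 1.53 CPM in females with a median of 0.313. The log2 fold changes were 2.73 ± 0.09 for Rpt3R and 5.39 ± 0.21 for Rpt4R (SE), so the ATPase copies held both a copy with one of the wider gaps between the sexes and the copy with the narrowest. Rpt3R overlaps CG8412 on the other strand, and the counts do not use strand, so part of its reads can be those of its neighbour.

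The copies of the other cap subunits were Rpn12R and Rpn13R, named for a subunit of the lid and for a receptor of ubiquitin. Rpn12R ran from 11.9 to 34.5 CPM in males (median 22.5) and from 0.442 to 4.15 CPM in females (median 1.07). Rpn13R ran from 10.6 to 17.5 CPM in males (median 12.9) and from 0 to 0.739 CPM in females (median 0.307). Both were separate between the sexes, with log2 fold changes of 4.24 ± 0.21 and 5.70 ± 0.23 (SE). Rpn12R was, with Rpt3R and Rpt6R, one of the 3 copies with a count above 0 in each of the 26 female libraries.

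The alpha copies were nearly unread in females. Prosalpha6T, a copy that is required for sperm individualization in *Drosophila*, ran from 15.4 to 31.8 CPM in males (median 24.9) and from 0 to 0.873 CPM in females (median 0.108). Prosalpha4T2 ran from 16.7 to 31.6 CPM in males (median 24.8) and from 0 to 0.912 CPM in females (median 0.137). These were alike in level, and the other pair was lower in males. Prosalpha4T1 ran from 4.09 to 8.30 CPM in males (median 6.92) and from 0 to 0.479 CPM in females (median 0.154). Prosalpha3T ran from 3.64 to 8.36 CPM in males (median 6.47) and from 0 to 1.48 CPM in females (median 0.124). The log2 fold changes were 7.54 ± 0.26 for Prosalpha6T, 7.54 ± 0.29 for Prosalpha4T2, 5.60 ± 0.28 for Prosalpha4T1 and 5.38 ± 0.34 for Prosalpha3T (SE).

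Of the beta copies, those of the catalytic subunits Prosbeta2 (trypsin-like) and Prosbeta5 (chymotrypsin-like) came as pairs, as did those of the non-catalytic Prosbeta4. Prosbeta5R1 ran from 14.9 to 28.2 CPM in males (median 22.1) and from 0 to 0.729 CPM in females (median 0.0781), where 8 of the 26 libraries had no count. Prosbeta5R2 ran from 6.43 to 11.8 CPM in males (median 9.01) and from 0 to 1.16 CPM in females (median 0.161). In males the first of this pair was the higher in level per length (19.99 against 5.87 RPKM, medians), and its log2 fold change of 7.74 ± 0.29 was the widest of the 15 copies. Prosbeta2R1 ran from 10.8 to 27.3 CPM in males (median 19.8) and from 0 to 0.844 CPM in females (median 0.186). Prosbeta2R2 ran from 7.72 to 15.7 CPM in males (median 12.7) and from 0 to 1.02 CPM in females (median 0.245). Here too the first was higher per length in males, at 18.4 against 9.66 RPKM. Prosbeta4R1 ran from 2.61 to 7.83 CPM in males (median 5.58) and from 0 to 1.34 CPM in females (median 0.0746). Prosbeta4R2 ran from 10.04 to 18.5 CPM in males (median 12.8) and from 0 to 1.72 CPM in females (median 0.259). These neighbours on 2L differed less per length, at 6.72 and 7.77 RPKM in males. The log2 fold changes of the beta copies other than Prosbeta5R1 lay between 5.26 ± 0.30 for Prosbeta2R2 and 6.47 ± 0.20 for Prosbeta2R1 (SE).

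**Figure D2:**
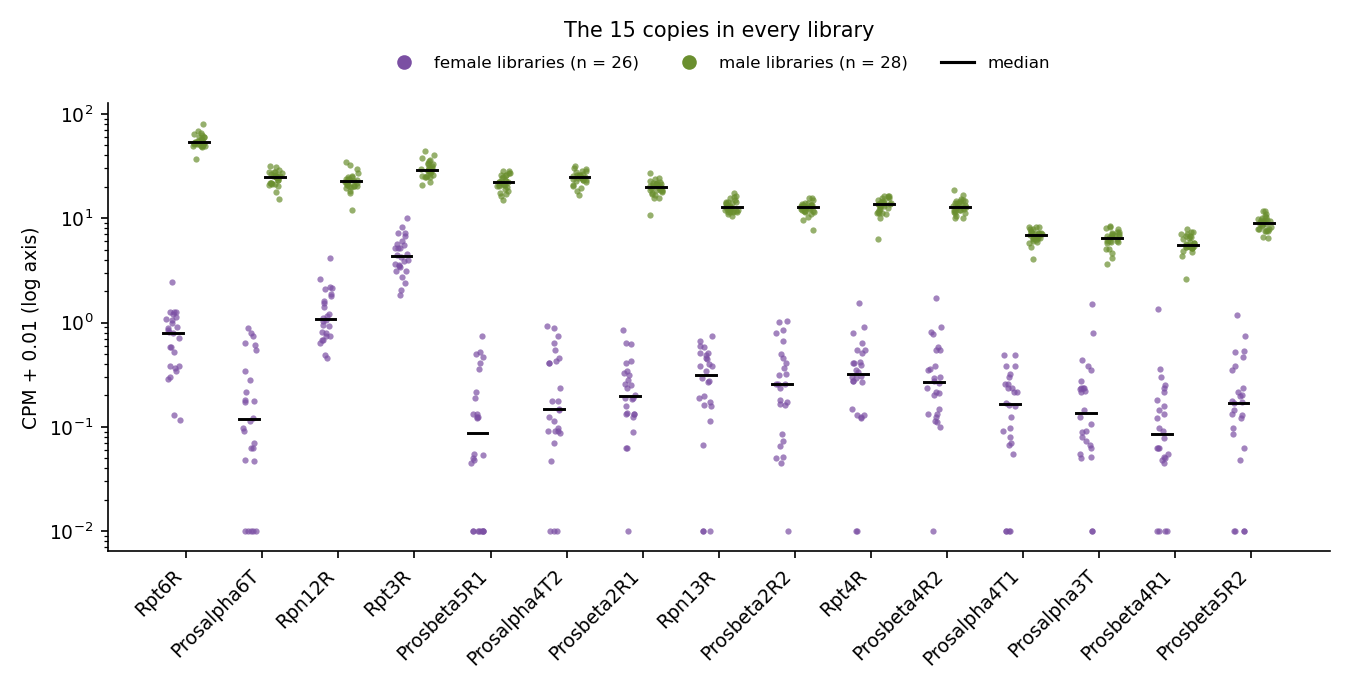
Level of each of the 15 copies in every library, as CPM plus 0.01 on a log axis, with female libraries (n = 26, purple) left of male libraries (n = 28, green) and the median as a bar. Points at the bottom are libraries with no count, and the gap between the sexes is narrowest for Rpt3R, whose female libraries reach 9.95 CPM and male libraries start at 20.7 CPM.

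The female medians of the copies were 0.353% (Prosbeta5R1) to 14.9% (Rpt3R) of the male medians, with a median of 1.92%. Rpt3R stood apart, and the next highest were Rpn12R at 4.78% and Rpn13R at 2.38%. For the 20 testis and spermatid markers the same percentage had a median of 0.43% and ran from 0 to 57.8%, and the structural sperm genes Mst77F and dj were at 0.383% and 0.308%. The counts behind the female levels were small, from 2 to 108 for Rpt6R and from 49 to 229 for Rpt3R per library, and at most 73 in any female library for the other 13. Rpt3R in female libraries did not track the summed testis markers (Pearson's r = -0.01 and Spearman's rho = 0.24 over 26 libraries). The r was 0.31 without the 2 farthest, -0.10 within the first set and 0.35 within the second. Much of that sum in females was djl, whose female median was 51.7% of the male median. The relation thus says little about RNA of testis origin in females. The other copies without Rpn12R, summed, showed r = 0.48 and rho = 0.57 with the accessory gland markers over the same libraries. Without the 2 farthest, r was 0.43. Both relations were chosen after the values were seen, as was the leaving out of Rpt3R and Rpn12R from the sum. Over the means of the 14 lines r was 0.30. Within the first set r was 0.46 (n = 18), and within the second it was 0.18 (n = 8) and turned to -0.59 without the 2 farthest, so the relation did not hold there. A contribution of male material in mated females to these levels was not tested.

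All 32 ubiquitous subunits were higher in females, from 1.137-fold for Rpn6 to 4.03-fold for Rpn12. By role, the 6 ATPases were the most uniform, with log2 fold changes between -1.49 and -0.90 and no overlap between male and female libraries for any of them. The 12 other cap subunits spread over the whole range from -2.01 to -0.19, the 7 alpha subunits lay between -1.62 and -0.75 and the 7 beta subunits between -1.58 and -0.26. In all, 17 of the 32 had every male library below every female library, against 13.7% of all genes tested.

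The widest sex differences were those of Rpn12, Prosalpha6 and Prosbeta4. Rpn12 (3L:16583028-16584022), a subunit of the lid of the cap, ran from 18.8 to 49.9 CPM in males with a median of 35.2, and from 84.7 to 333 CPM in females with a median of 137. Prosalpha6 ran from 34.4 to 84.9 CPM in males (median 66.4) and from 104 to 343 CPM in females (median 197). Prosbeta4 ran from 8.97 to 25.4 CPM in males (median 19.7) and from 38.9 to 121 CPM in females (median 56.1). The sexes did not overlap for any of these. The log2 fold changes were -2.01 ± 0.10 for Rpn12 (adjusted p = 6.90e-21), -1.62 ± 0.07 for Prosalpha6 (1.75e-23) and -1.58 ± 0.08 for Prosbeta4 (8.38e-20), from edgeR with standard errors. No ubiquitous subunit was higher in males.

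At the other end were Rpn6, a scaffold subunit of the lid, Prosbeta1, the caspase-like catalytic subunit, and Rpn13, a receptor of ubiquitin. Rpn6 ran from 95.8 to 210 CPM in males (median 183) and from 136 to 268 CPM in females (median 194), so that the sexes overlapped over most of their ranges. Its log2 fold change was -0.19 ± 0.06 (SE, adjusted p = 0.00249 by edgeR). With the size factors of DESeq2, which moved the median of all genes from 0.11 to 0.30, Rpn6 came to 0.01 (adjusted p = 0.802) and Prosbeta1 went from -0.26 to -0.06 (0.330). Relative to the median of all genes, Rpn6 was at -0.29 under both scalings and Prosbeta1 at -0.36.

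Per length, Prosbeta5 was the most abundant of the 47 in both sexes, with medians of 105 RPKM in males and 286 RPKM in females. In females it was followed by Prosalpha6 (184 RPKM) and Prosalpha3 (172 RPKM), and in males by Rpn10 (95.0 RPKM), a receptor of ubiquitin, and Rpn6 (94.0 RPKM). The median ubiquitous subunit was at 50.3 RPKM in males and 88.9 RPKM in females, although the subunits are parts of 1 complex. The lowest was Prosalpha1 (13.5 and 23.5 RPKM), whose level is uncertain, since its neighbour CG30382 is a nearly identical gene that took a median of 22.3 CPM in males and 31.2 CPM in females. The span of another gene, from its first to its last exon, overlaps that of 21 of the 47, on the other strand in 17. Spans can overlap without shared exons, so these levels may be uncertain, as for Rpt3R where the neighbour is on the other strand.

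The ubiquitous subunits that have a copy showed a wider sex difference than those without, a comparison made after the values were seen. The median log2 fold change was -1.44 over the 11 parents and -0.82 over the 21 others, and the median of the parents was the lower in each of the 8 genotypes. The 9 widest differences included 8 parents, and Rpn11, the deubiquitinating enzyme of the cap, was the exception at -1.29. Male and female libraries did not overlap for 10 of the 11 parents and for 7 of the 21 others. Rpn13 was the parent that did not follow, at -0.35 ± 0.05 (SE). The list is too small and was seen too late for a test.

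Chromosomal position differed between copies and parents. Rpt3, Rpt4, Rpt6 and Prosalpha4 are X-linked, and their 5 copies are autosomal. Rpn13R and Prosbeta2R1 are X-linked copies of autosomal parents, and 10 of the 15 copies lie on another chromosome arm than the parent. The 4 X-linked ubiquitous subunits had a median log2 fold change of -1.37 against -0.90 for the 28 autosomal ones, and all tested genes had -0.24 on the X (2425 genes) and 0.17 on chromosomes 2 and 3 (13040 genes).

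Within a library, the ratio of a copy to its parent does not depend on the scaling. It was higher in males than in females in each of the 14 lines for each of the 15 copies. The exact two-sided sign-flip permutation p was 0.000122 apiece, the smallest that 14 lines allow (15 tests). This direction follows from the sex differences of copies and parents given above, so the tests add no independent evidence. On the log2 scale the ratio differed between the sexes by 4.03 ± 0.64 for Rpt3R to 9.34 ± 1.56 for Prosbeta5R1 (SD over lines). In males, Rpt6R was at a median of 146% of the level of Rpt6 per length, between 102% and 246%, and so exceeded its parent in 28 of 28 libraries. In females it was at 0.649% of it. No other single copy had a male median above its parent: Prosalpha4T2 was at 71.04% of Prosalpha4, Rpn12R at 62.9% of Rpn12, Rpt3R at 47.96% of Rpt3 and Prosbeta5R2, the lowest, at 5.43% of Prosbeta5. With Prosalpha4T1 and Prosalpha4T2 added together, the copies exceeded Prosalpha4 in 13 of the 28 male libraries.

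When a parent and its copies were summed per length, the copies made up a median of 7.47% (Prosalpha3 family) to 59.4% (Rpt6 family) of the sum in males. In females they made up a median of 0.948% or less in every family but that of Rpt3 (3.06%). Since the copies were higher in males and the parents in females, adding the copies lowers the female to male ratio by construction. For Rpt6 the parent was 2.72-fold higher in females and the sum 1.12-fold, and for Rpn13 the parent was 1.34-fold and the sum 1.08-fold higher. For Prosalpha4 the values were 2.87-fold and 1.49-fold. Rpn12, Prosbeta5 and Prosalpha6 kept a sum 2.35-fold, 2.19-fold and 2.11-fold higher in females, so the families differed in the ratio that was left. Whether copies make up for a lower parent was not tested.

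**Figure D3:**
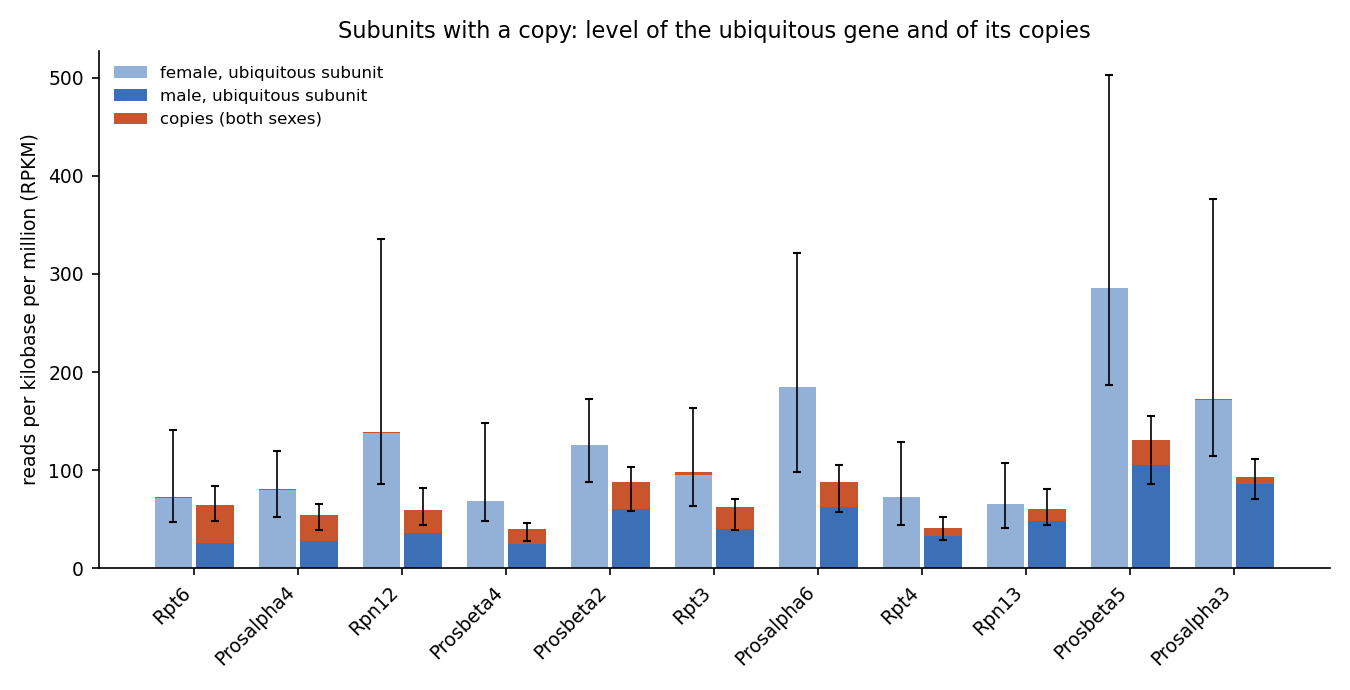
Level per length (RPKM) of the 11 ubiquitous subunits with a copy, by sex, with the level of the copies stacked on top. Bars are medians over 26 female (left, pale blue) and 28 male (right, dark blue) libraries, the copies are orange, and error bars give the lowest and highest summed level. The Rpt6 and Rpn13 families have nearly equal sums in the sexes (1.12-fold and 1.08-fold higher in females under TMM).

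Members varied less between male libraries than between female libraries. In males the coefficient of variation had a median of 14.6% over the ubiquitous subunits and 15.4% over the copies, beside 22.05% over all genes tested. In females it was 25.5% over the ubiquitous subunits, 92.2% over the copies and 36.8% over all genes. The summed level of the 32 ubiquitous subunits ran from 1660 to 2793 CPM in males (median 2373) and from 3406 to 6720 CPM in females (median 4304), so the sexes did not overlap. The summed copies ran from 195 to 323 CPM in males (median 280.0) and from 5.15 to 17.9 CPM in females (median 9.84).

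In females the summed ubiquitous subunits followed the ovary and egg markers, with r = 0.81 and rho = 0.74 over 26 libraries, 0.74 for r without the 2 farthest, and r = 0.87 over the means of the 14 lines. Within the first set r was 0.80 (n = 18). Within the second set r was 0.92 (n = 8) but fell to 0.41 without the 2 farthest libraries, so it rests on these. In males the summed copies followed the testis markers, with r = 0.67 and rho = 0.69 over 28 libraries, 0.66 without the 2 farthest and 0.67 within the first set (n = 21), the other sets holding too few male libraries. These relations too were chosen after the values were seen. The libraries share 14 lines and the values share a depth, and no test of a cause was made.

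**Figure D4:**
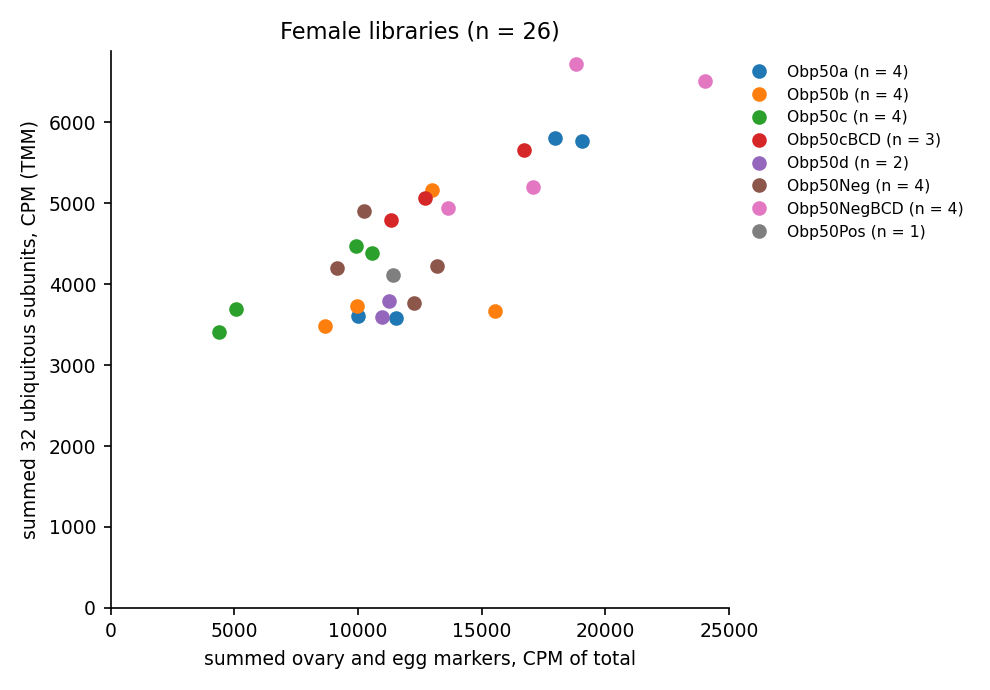
Summed level of the 32 ubiquitous subunits (CPM, TMM) against the summed ovary and egg markers (CPM of the total) in the 26 female libraries, coloured by genotype. The highest library is of Obp50NegBCD (6720 CPM of subunits) and the lowest of Obp50c (3406 CPM), with r = 0.81 over all 26.

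The sex difference of the copies held in each genotype: 15 of 15 were called higher in males in all 8. The share of all genes called higher in males was 37.9% in Obp50a, 35.3% in Obp50b, 35.1% in Obp50c, 36.1% in Obp50cBCD, 32.6% in Obp50d, 35.8% in Obp50Neg, 38.5% in Obp50NegBCD and 26.8% in Obp50Pos. No ubiquitous subunit was called higher in males in any genotype. The number called lower in males was 32 in Obp50cBCD (33.3% of all genes), 31 in Obp50a (32.3%), 30 in Obp50NegBCD (34.3%) and 29 in Obp50Neg (32.8%) and in Obp50c (33.7%). It was 28 in Obp50b (29.7%), and 24 in Obp50d (26.1%) and in Obp50Pos (24.9%), which had the fewest libraries. Rpn6 missed the threshold in 7 genotypes and Prosbeta1 in 5. When the counts of a line were summed, Obp50Pos and Obp50d, with 1 line each and so 1 summed sample per sex, had 9 and 13 ubiquitous subunits called.

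A joint test asked whether the sex difference varied among the 8 genotypes. It called 1.70% of the genes tested and 3 of the 47 members, all of them copies: Rpt3R and Rpt6R (adjusted p = 0.00342 for both) and Prosalpha6T (adjusted p = 0.0498, by edgeR). Prosalpha6T was not called with the set term (adjusted p = 0.0985 by edgeR) or with the size factors of DESeq2 (0.0528). None of the 3 was called when the counts were summed by line (0.751 for Rpt3R and 0.686 for the others). The number of members called was 15 without the 8 male libraries that hold yolk protein transcripts, and Prosalpha6T was not among the calls there (adjusted p = 0.118 by edgeR). The share of all genes called in that setting was not computed, so the 15 cannot be set beside it.

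Relative to their level, the genotype means of Rpt3R lay further apart in females than in males. Its female level was 9.06 ± 1.26 CPM in Obp50d (SD, n = 2), 6.67 ± 0.94 in Obp50cBCD (n = 3), 5.72 ± 0.92 in Obp50Neg (n = 4) and 4.55 ± 0.88 in Obp50b (n = 4). It was 3.96 CPM in the single Obp50Pos library, 3.60 ± 0.65 in Obp50c, 3.30 ± 1.36 in Obp50NegBCD and 2.90 ± 0.80 in Obp50a (n = 4 each). Only Obp50d lay clear of all other genotypes, at 8.17 and 9.95 CPM in its 2 libraries, of which 1 belongs to each of the first and second sets. Males ranged from 24.5 ± 4.07 CPM in Obp50cBCD to 39.9 ± 5.26 CPM in Obp50d. The log2 sex difference of Rpt3R was lowest in Obp50cBCD, at 1.86 ± 0.20, where the male mean was also the lowest, and highest in Obp50a, at 3.60 ± 0.20 (SE).

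**Figure D5:**
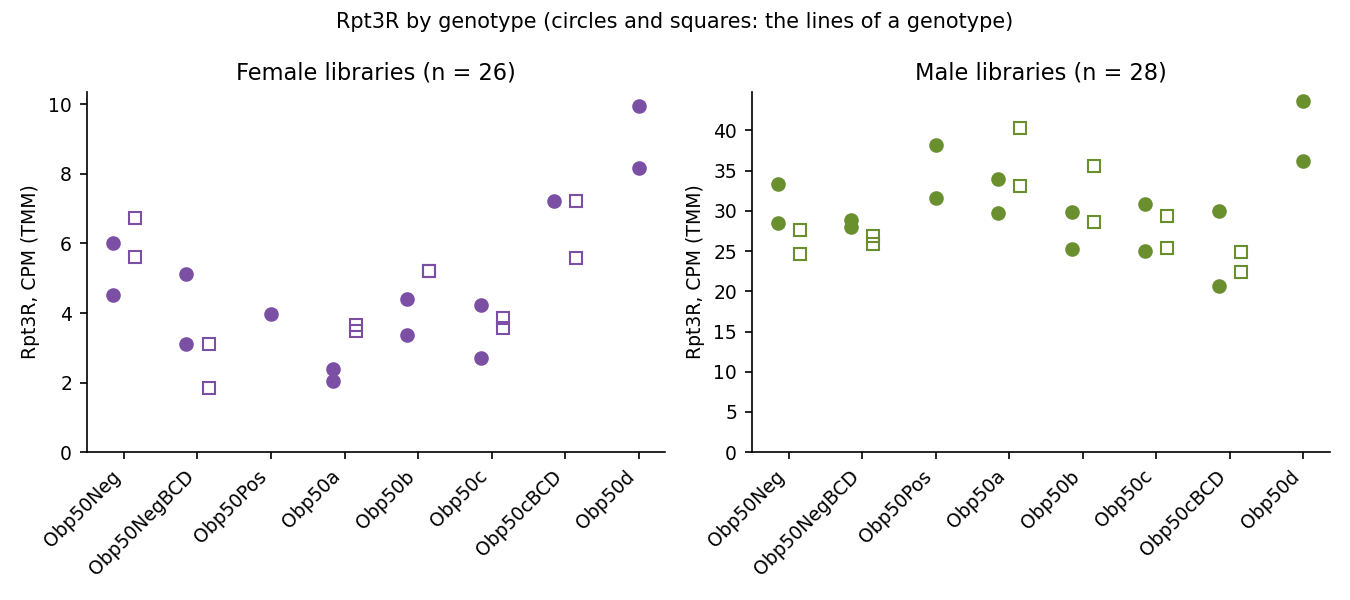
Rpt3R in every female (left) and male (right) library by genotype, in CPM, with circles and squares for the lines of a genotype and separate vertical axes. Female libraries of Obp50d (8.17 and 9.95 CPM) lie above those of all other genotypes, and those of Obp50cBCD (5.58 to 7.22 CPM) above those of Obp50c, Obp50NegBCD and Obp50a.

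For Rpt6R the female levels lay between 0.196 ± 0.129 CPM in Obp50d (n = 2) and 1.54 ± 0.61 CPM in Obp50b (SD, n = 4). Male levels stayed within 49.3 ± 8.53 CPM (Obp50cBCD) and 62.7 ± 14.3 CPM (Obp50c). Its log2 sex difference ran from 5.06 ± 0.24 in Obp50b to 7.95 ± 0.43 in Obp50d (SE). The order of the genotypes was thus not that of Rpt3R, since Obp50d held the highest female level of one copy and the lowest of the other. For Prosalpha6T, the 4 female Obp50a libraries held 1 count together and those of Obp50Neg 33.

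Among males, edgeR called no member between genotypes. The joint test over the 8 male means called 2.98% of the genes tested and 0 members, with the smallest p for Rpn13 (unadjusted p = 0.00384, adjusted p = 0.0780, by edgeR). DESeq2 called 1 member and edgeR fitted on males alone called 7, and the share of all genes was not computed for either. In each of the 9 contrasts between male genotypes edgeR called 0 members, against 0 genes of all in Obp50a, Obp50b and Obp50NegBCD and 0.0128%, 0.0191% and 0.0128% in Obp50Pos, Obp50c and Obp50d, all against Obp50Neg. The share was 0.0255% in Obp50b and 1.68% in Obp50cBCD against Obp50NegBCD, and 0.293% in Obp50cBCD against Obp50c. In Obp50cBCD against Obp50NegBCD the median log2 fold change was -0.29 over the ubiquitous subunits and -0.26 over the copies, beside -0.09 over all genes. The Obp50cBCD males include replicate J3_S53, which under TMM was the lowest of all 28 male libraries in both sums (1660 and 195 CPM). As CPM of the total count its sums were 2499 and 293 CPM, the highest of the Obp50cBCD males, so its place depends on the scaling. Without this library the median log2 ratio of the means was -0.20 and -0.22, with 32 ubiquitous subunits and 13 of the 15 copies lower. By edgeR, 8 of the ubiquitous subunits had an unadjusted p under 0.05, as did 2064 of all 15675 genes, and the smallest adjusted p of a member was 0.119. In the other male contrasts the unadjusted count ran from 0 to 3 of the 47. Summed over the 9 contrasts, DESeq2 called 1 member and edgeR fitted on males alone 3.

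Among females, the joint test over the 8 means called 24.6% of the genes tested and 23 of the 47 members, 16 ubiquitous subunits and 7 copies. Rpt6R and Rpt3R had the smallest adjusted p. The female means of the summed ubiquitous subunits ran from 3690 CPM in Obp50d to 5844 CPM in Obp50NegBCD, beside ovary markers of 11102 and 18398 CPM. The order was not the same throughout, since Obp50c had the lowest ovary markers, at 7480 CPM, with subunits at 3986 CPM. The part of ovary RNA in the call was not tested. The count was 36 in DESeq2, 7 in limma-voom with line as a random effect, 5 with the counts summed by line and 1 with females alone. The main fit estimates the spread of a gene over both sexes, and the fit of females alone does not. The share of all genes called was not computed in these settings.

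Most member calls came from Obp50b against Obp50NegBCD, 2 genotypes that differ in carrying an intact Obp50b or its CD allele. Of all genes, 14.5% were called, 8.27% lower and 6.19% higher, and of the 47 members 21 were: 17 ubiquitous subunits lower in Obp50b, the copies Rpt4R, Rpt6R and Prosbeta4R1 higher and Prosbeta2R1 lower. All 32 ubiquitous subunits had a lower mean in Obp50b, with a median log2 fold change of -0.56 beside -0.01 over all genes. Their sum ran from 3483 to 5170 CPM in Obp50b and from 4944 to 6720 CPM in Obp50NegBCD under TMM. As CPM of the total count it ran from 3573 to 4830 and from 4502 to 5580 CPM, so the size of the difference depends on the scaling. The ovary markers were also lower, at 8662 to 15523 CPM against 13648 to 24028 CPM. The part of ovary RNA in this difference was not tested.

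The largest of these changes without overlap of the libraries were in Rpt6R, Prosbeta1 and Rpn13. Rpt6R was at 1.54 ± 0.61 CPM in Obp50b and 0.851 ± 0.088 CPM in Obp50NegBCD (SD, n = 4 each), a log2 fold change of 0.89 ± 0.27 (SE, edgeR adjusted p = 0.0236). Prosbeta1 was at 55.3 ± 9.09 and 99.5 ± 22.7 CPM, with -0.85 ± 0.19 (adjusted p = 0.00496 by edgeR). Rpn13 was at 81.3 ± 7.89 and 142.9 ± 27.5 CPM, with -0.81 ± 0.16 (adjusted p = 0.00191 by edgeR). Rpt6R was thus higher in Obp50b and these ubiquitous subunits lower. Rpt4R and Prosbeta4R1 were called on small counts, 111 against 32 and 70 against 9 over the 4 libraries of each genotype, and their libraries overlapped. Of the counts in Obp50b, 67 of Rpt4R and 59 of Prosbeta4R1 came from replicate 33_S25, which also held 108 of the 189 counts of Rpt6R. Without that library none of these copies was called, with log2 fold changes of 1.00 for Rpt4R (adjusted p = 0.162 by edgeR), 0.79 for Prosbeta4R1 (0.418) and 0.53 for Rpt6R (0.212). With counts summed by line, no member was called, with females alone edgeR called 1, and limma-voom called 7. The number of calls was 9 without Obp50NegBCD replicate 17_S9, 10 without its replicate 18_S10 or without Obp50b replicate 33_S25, and 11 without Obp50b replicate 54_S31 or 63_S43.

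The other female contrasts called few members. In Obp50a against Obp50Neg (1.89% of all genes), Rpt3R was lower, at 2.90 ± 0.80 against 5.72 ± 0.92 CPM (SD, n = 4 each), with a log2 fold change of -0.996 ± 0.207 (SE, edgeR adjusted p = 0.00805) and no overlap. Rpt3R missed the threshold with the counts summed by line (adjusted p = 0.205 by edgeR), in limma-voom with line as a random effect (0.460) and in edgeR on females alone (0.290). Prosalpha6T and Prosbeta5R1 were also called lower. They rested on 1 count each in Obp50a against 33 and 27 in Obp50Neg, ratios of 3.31% (95% exact interval 0.0815% to 19.8%) and 4.05% (0.0989% to 24.6%), which cover counting error only. The Obp50a libraries were all of the second set and those of Obp50Neg of the first, and their accessory gland markers were at 2.69 to 4.68 CPM against 8.83 to 62.2 CPM, so genotype and set cannot be told apart. With the library set as a term Rpt3R alone was called (adjusted p = 0.0369 by edgeR), and the count was 1 without Obp50Neg replicate 6_S6 or without Obp50a replicate 62_S42.

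In Obp50cBCD against Obp50NegBCD (0.287% of all genes), which asks for the effect of a functional Obp50c beside the CD allele, Rpt3R was higher. It was at 6.67 ± 0.94 (n = 3) against 3.30 ± 1.36 CPM (n = 4), a log2 fold change of 1.01 ± 0.22 (SE, edgeR adjusted p = 0.0238). It missed the threshold with no filter on low counts (adjusted p = 0.0630 by edgeR), with a mean count of 10 or more (0.0584), with the set term (0.0678), summed by line (0.2998), on females alone (0.933) and in limma-voom (0.999). In Obp50cBCD against Obp50c (0.919% of all genes), which asks for the effect of the CD allele beside functional Obp50c, Rpt3R was again higher (0.89 ± 0.21, adjusted p = 0.0335 by edgeR). These contrasts share the Obp50cBCD libraries. Rpt4 was higher in the second, at 151.3 ± 25.8 against 87.2 ± 22.9 CPM (adjusted p = 0.0269 by edgeR), and Rpt6R lower, at 0.328 ± 0.045 against 0.934 ± 0.284 CPM (adjusted p = 0.0234 by edgeR). The Obp50c libraries of line 24 had the lowest ovary markers of all females, 4364 and 5084 CPM, beside 9915 and 10557 CPM in the other line. Without line 24, an alternative chosen after seeing the data, Rpt4 was at 0.50 (adjusted p = 0.486 by edgeR) and Rpt3R at 0.95 (0.204) on the log2 scale, and neither was called. None of Rpt3R, Rpt4 and Rpt6R was called in limma-voom (adjusted p = 0.284, 0.156 and 0.448), on females alone by edgeR (0.260, 0.187 and 0.327) or summed by line (0.583, 0.693 and 0.413). The first contrast called no member without Obp50NegBCD replicate 20_S37, Obp50cBCD replicate 25_S42 or Obp50cBCD replicate 58_S48, and 3 and 4 without Obp50NegBCD replicates 18_S10 and 19_S11. The second called none without Obp50c replicate 41_S13 or Obp50cBCD replicate 25_S42 or 26_S43, 1 without Obp50c replicate 42_S14, and 7 and 6 without Obp50c replicates 63_S24 and 64_S33.

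In Obp50d against Obp50Neg (0.823% of all genes), Rpt6R was lower, at 0.196 ± 0.129 (SD, n = 2) against 0.848 ± 0.366 CPM (n = 4), with a log2 fold change of -2.01 ± 0.46 (SE, edgeR adjusted p = 0.0268). It missed the threshold with all 56 libraries (adjusted p = 0.0905 by edgeR), with the set term (0.0813), summed by line (0.431), on females alone (0.393) and in limma-voom (0.430). This rests on 9 counts against 76, and no member was called without Obp50Neg replicate 5_S5 or 6_S6 or Obp50d replicate 64_S44. Obp50b, Obp50c, Obp50Pos and Obp50NegBCD against Obp50Neg called 0 members by edgeR, against 1.13%, 1.35%, 0.0255% and 0.102% of all genes. DESeq2 called 2, 4, 0 and 2 members in these contrasts, and at an unadjusted p under 0.05 edgeR had 3, 3, 0 and 26 ubiquitous subunits and 3, 3, 2 and 2 copies. The same unadjusted threshold was passed by 2283, 2046, 1012 and 1572 of all 15675 genes. The means of all 32 ubiquitous subunits were higher in Obp50NegBCD than in Obp50Neg. The median difference was 0.45 on the log2 scale, beside -0.000344 over all genes, and the smallest adjusted p of these subunits was 0.254 by edgeR. Female Obp50NegBCD libraries also held the most ovary marker RNA of all genotypes.

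Of 25 other genes of the ubiquitin and proteasome pathway, 14 were higher in females and 9 in males, against 40.1% and 44.6% of all genes, and Uch-L5 and maf-S passed the threshold in neither direction. REG, the gene of a proteasome activator, had medians of 474 CPM in females and 104 CPM in males, with a log2 fold change of -2.17 ± 0.09 (SE). Sem1, a small subunit of the lid that the symbol rule does not take in, was at 175 and 50.4 CPM (-1.80 ± 0.11). Usp14, a deubiquitinating enzyme of the cap, and the shuttle factor Rad23 both stood at -1.26, and RpS27A and RpL40, which encode ubiquitin fused to ribosomal proteins, at -1.91 and -1.36. The assembly chaperone Pomp was at -0.51 ± 0.06. The adaptor klhl10 of the ubiquitin ligase of spermatid individualization in *Drosophila* was at 37.4 CPM in males and 0.492 CPM in females, its inhibitor soti at 93.3 and 0.310 CPM, and the ligase scaffold Cul3 at 379 and 156 CPM. The F-box gene ntc stood at 2.77 ± 0.11 (SE), and Uch-L5R, a copy of Uch-L5 by name, at 5.65 ± 0.23. Of the polyubiquitin genes, Ubi-p63E was higher in males (0.79 ± 0.09), and Ubi-p5E was lower (-0.20 ± 0.08).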

How the data were processed

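RNA of pools of whole flies was sequenced. Per the study's methods, the authors trimmed reads with AfterQC and aligned them with GSNAP to *D. melanogaster* release 6.13. Per the file headers, the deposited counts per gene were made with featureCounts 1.6.4 in its unstranded setting. Coordinates are those of the deposited tables. From the counts, CPM scaled by TMM were computed in edgeR 4.0.16 (R 4.3.3), and RPKM by exon length. Of 17490 genes, 15675 were tested, those read in no fewer than 25% of the 54 libraries with a median count of 2 or more. Sex was tested with line as a block and a sex effect per genotype, and genotypes with 1 mean for each of the 16 groups and no line term, since line is nested in genotype. edgeR's quasi-likelihood test was used with Benjamini-Hochberg adjustment and a threshold of 0.05. For sex, p-values measure the spread between pools, and between lines in their sex effect, with the level of each line set apart. For genotypes they measure a mixed spread of pools and lines, with pools of 1 line counted as separate replicates. That spread was estimated per gene over both sexes. The median coefficient of variation of all genes tested was 36.8% between female libraries and 22.05% between male ones. A shared spread can thus be too narrow for females and too wide for males. Fits of each sex alone do not share it. In limma-voom the correlation between libraries of a line was estimated at 0.25. Ratios of copy to parent used a pseudocount of 0.5 and exact permutation over lines.

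Pairing comes from the line that the labels give to both sexes. Over 12 lines of genotypes with a second line, the correlation of male and female deviations from the genotype mean ran from -0.01 to 0.54. The median was 0.23 and 8 values were above 0.1. Lines of a genotype deviate from its mean in opposite directions and so give the same correlation. The 12 values thus repeat a value within every genotype and are not independent. Every copy was to be given by sex, and the ubiquitous subunits with the 3 largest differences in each direction. Members past the threshold were to be named between genotypes, and the 3 largest without overlap where more than 5 passed. Members and gene lists were chosen with earlier results of these data known. Alternatives were DESeq2 1.42.0, its size factors, limma-voom (limma 3.58.1), other filters, counts summed by line, a term for library set, each sex alone, all 56 libraries, no block, and leaving out each library with the genes and dispersion trend kept. Relations and figures were made in Python 3.11.15.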

Additional observations from a re-analysis of the deposited data

Results flagged for a closer look

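Within groups of 4 libraries, 8 of 55 sets of values tested had a library far from the rest, where chance gives about 1 in 20 for continuous values. That rate need not hold for copies read at a few counts, so the number of flags cannot be weighed against it. The flag of Prosalpha6T in female Obp50a rests on 1 count. Prosalpha6T was at 0.873 CPM in female Obp50Neg replicate 6_S6 and at 0.165 to 0.268 in the others. It was at 0.0592 CPM in female Obp50a replicate 84_S36 and 0 in the others, and at 0.6251 CPM in female Obp50c replicate 42_S14 and 0.0372 to 0.112 in the others. Rpt6R was at 0.511 CPM in that last library and 1.04 to 1.12 in the others of its group, and at 2.46 CPM in female Obp50b replicate 33_S25 beside 1.20 to 1.26. The summed ubiquitous subunits were at 5170 CPM in female Obp50b replicate 34_S26 beside 3483 to 3732, and at 2793 CPM in male Obp50NegBCD replicate 24_S41 beside 2636 to 2663. The summed copies were at 195 CPM in male Obp50cBCD replicate J3_S53 beside 255 to 257. These levels are scaled by TMM. As CPM of the total count, replicate 34_S26 held 4759 CPM of ubiquitous subunits beside 4830 CPM in replicate 33_S25 of the same line. Replicate J3_S53 held 293 CPM of copies on that scale, the highest of its group. The flags of replicates 34_S26 and J3_S53 thus depend on the scaling.

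The sex difference varied over the 8 genotypes for Rpt3R and Rpt6R (edgeR adjusted p = 0.00342 for both) and for Prosalpha6T (adjusted p = 0.0498 by edgeR). In the Obp50Pos female library that was set aside, replicate J2_S52, the copies summed to 24.2 CPM of the total count, above the highest female library kept, at 23.5.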

How the results depend on the processing

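The counts by sex, 15 copies higher in males and 32 ubiquitous subunits higher in females, held under all alternatives run except DESeq2 and its size factors, which called 30 of 32 and put Rpn6 at 0.0131 and 0.0130 on the log2 scale (adjusted p = 0.790 and 0.802). The block was the line shared by both sexes, and without this pairing (no replicate block) the sex counts were 15 and 32 and the sex by genotype test called 5 members in place of 3. No paired analysis was possible because lines are nested in genotype, for the contrasts between genotypes within a sex. With counts summed per line, 9 ubiquitous subunits were called in Obp50Pos and 13 in Obp50d. Sex by genotype calls were 7 in DESeq2, 7 with all 56 libraries, 0 with counts summed per line, 15 without male libraries with yolk RNA (chosen after seeing the data) and 2 to 8 with single libraries left out: 8 without Obp50NegBCD replicate 19_S11, 6 without Obp50b replicate 63_S43 and 5 without Obp50b replicate 34_S26 or Obp50d replicate 67_S36. Male contrasts, 0 in all, gave 1 in DESeq2, 3 with males alone and 0 to 1 with single libraries left out, and the joint male test gave 1 in DESeq2, 1 with all 56 libraries, 7 with males alone and 0 to 2. The joint female test, 23, gave 36 in DESeq2, 5 summed per line, 7 in limma-voom, 1 with females alone and 18 to 31. With 1 library left out, Obp50a against Obp50Neg (3) gave 1 to 4, and it gave 1 summed per line, 1 with the set term, 0 in limma-voom and 0 with females alone. Obp50b against Obp50NegBCD (21) gave 9 to 30, and 0 summed per line, 7 in limma-voom and 1 with females alone. Obp50b against Obp50Neg (0) gave 2 in DESeq2, 1 with its size factors, 1 with a mean count of at least 10 and 0 to 2, with 1 without Obp50Neg replicate 6_S6 or Obp50b replicate 34_S26 and 2 without Obp50b replicate 63_S43. Obp50c against Obp50Neg (0) gave 4 in DESeq2, 1 with all 56 libraries and 0 to 3, with 3 without Obp50c replicate 64_S33. Obp50NegBCD against Obp50Neg (0) gave 2 in DESeq2, 1 with a mean count of at least 10 and 0 to 1, with 1 without Obp50NegBCD replicate 17_S9. Obp50cBCD against Obp50NegBCD (1) gave 4 in DESeq2, 3 with all 56 libraries, 0 to 4 with single libraries left out, and 0 summed per line, with the set term, in limma-voom and with females alone. Obp50cBCD against Obp50c (3) gave 6 in DESeq2, 5 with its size factors, 7 with all 56 libraries, 5 with the set term, 5 with a mean count of at least 10, 1 without Obp50c line 24 (chosen after seeing the data), 0 to 7 with single libraries left out, and 0 summed per line, in limma-voom and with females alone. Obp50d against Obp50Neg (1) gave 0 with all 56 libraries, summed per line, with the set term, in limma-voom and with females alone, and 0 to 1. The cause was not tested. The share of all genes called by the genotype tests was not computed in the alternative settings, so these counts cannot be set beside it. Of single members, 118 values under other settings and 132 with a library left out fell short of the threshold. The levels of copies in females rest on few counts.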
